A study of Drosophila melanogaster with 2 samples.

Results

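The regions described are 878 intron peaks near a start site, mapped by chromatin immunoprecipitation with sequencing (ChIP-seq) of Atf6-eGFP in Drosophila embryos. They were the peaks of the authors' thresholded list of both replicates whose highest point, the summit, lay more than 500 and up to 2000 bp from the nearest start site of a protein-coding gene. The summit also had to lie inside a protein-coding gene and in no annotated exon of any gene. The 878 peaks made up 15.02% of the 5846 in the list (95% Wilson interval 14.1 to 16.0%). Within that list position alone chose them, but the list itself had been thresholded by the authors.

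There was 1 group of 2 biological replicates: whole Drosophila melanogaster embryos of 0 to 24 h, of a transgenic strain that expresses Atf6 fused to enhanced green fluorescent protein. The fusion was precipitated with an antibody against the fluorescent protein. Every replicate carried the transgene, and whole embryos of mixed age blend all tissues and stages, so a peak cannot be placed in a cell type. The control library was not analysed here and the numbers of reads are unknown.

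The Atf6 protein belongs to the basic leucine zipper (bZIP) factors and spans the membrane of the endoplasmic reticulum (ER); in mammals, ER stress releases its DNA-binding part, which acts on chaperone genes. Introns close to a start site, above all first introns, often hold enhancers and start sites of alternative transcripts.

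The summit sequences of strong members of this class were rich in A and T. The 5 sequences shown first belong to the strongest such peaks outside the right arm of chromosome 2, since the class is led by them. Each is 101 bases around the summit on the plus strand of dm6, from the RefSeq copy of the assembly. Capitals mark the words TATAAAA and TAATTA on either strand, the only ones of 28 chosen words that passed the test given further on. In the peaks at Trl and CG32772 the capitals mark TATAAAA, and in those at CG11050 and norpA they mark TAATTA.
CG11050, chr2L:6612662-6612762: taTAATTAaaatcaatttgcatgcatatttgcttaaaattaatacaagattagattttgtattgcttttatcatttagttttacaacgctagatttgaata
Trl, chr3L:14759473-14759573: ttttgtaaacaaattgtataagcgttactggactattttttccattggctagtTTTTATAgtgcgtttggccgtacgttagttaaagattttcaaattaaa
CG32772, chrX:4910311-4910411: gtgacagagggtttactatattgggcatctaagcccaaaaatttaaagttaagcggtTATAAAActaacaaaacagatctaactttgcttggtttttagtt
CG9663, chr2L:3302130-3302230: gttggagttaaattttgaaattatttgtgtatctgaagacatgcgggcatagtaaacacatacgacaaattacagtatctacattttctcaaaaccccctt
norpA, chrX:4324928-4325028: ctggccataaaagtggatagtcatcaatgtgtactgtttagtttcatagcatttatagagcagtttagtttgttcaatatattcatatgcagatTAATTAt
The next 4 sequences are from strong peaks outside that arm with ACAGTG, the 6-letter word with the smallest p in strata of base composition. Capitals mark ACAGTG or its reverse complement CACTGT.
CG32767, chrX:5083706-5083806: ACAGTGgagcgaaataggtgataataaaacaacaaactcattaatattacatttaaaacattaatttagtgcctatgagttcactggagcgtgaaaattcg
schlank, chrX:6265530-6265630: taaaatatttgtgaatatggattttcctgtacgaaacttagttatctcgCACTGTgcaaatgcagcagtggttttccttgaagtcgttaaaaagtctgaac
Marf, chrX:6366405-6366505: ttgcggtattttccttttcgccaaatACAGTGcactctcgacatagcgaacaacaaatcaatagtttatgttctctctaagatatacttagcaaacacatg
CG14434, chrX:6854682-6854782: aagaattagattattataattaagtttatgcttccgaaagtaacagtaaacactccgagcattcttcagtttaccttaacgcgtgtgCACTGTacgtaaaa
The last sequence, of the weakest peak of the class, is shown for contrast, with a G+C content of 53.5% against 20.8% at CG11050.
Mob2, chr3L:11554686-11554786: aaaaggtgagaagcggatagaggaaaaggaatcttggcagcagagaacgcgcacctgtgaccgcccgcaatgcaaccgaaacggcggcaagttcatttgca

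The strength of these peaks spanned a wide range, and the top of the class stood among the strongest peaks of the whole list. Strength is the authors' signal score, whose scale is not stated in the sources used here. The score of the 878 peaks ran from 2.11 to 4478, with a median of 103.9 and quartiles of 76.2 and 173. The median was 98.5 in the 1241 intron peaks more than 2000 bp from a start site, and 108 in the 2699 peaks within 500 bp of one. The class held 12 of the 100 strongest peaks of the list and 163 of the 1000 strongest.

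The strongest peak of the class, in the second intron of CG11050 at chr2L:6612365-6613009, was also the strongest of the whole list. Its signal was 4478 for both replicates together, 1884 in the list of replicate 1 and 2551 in the list of replicate 2. It ranked first in both. The intron is 140 bp long and the peak 645 bp wide, so the peak extends beyond it, with the summit 1025 bp past the start site. The next was in the second intron of Trl, which encodes the GAGA factor, at chr3L:14759315-14759716. There the signal was 1546 together, 807 in replicate 1 and 751.5 in replicate 2. In each replicate the CG11050 score was far above that of any other peak of the class.

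Among the other leading peaks, HmgZ, which encodes a high mobility group protein and whose peak also lies within HmgD, had a signal of 1483 together, 858 in replicate 1 and 640 in replicate 2. The peak near chif, a gene for the partner of the Cdc7 replication kinase, also lies within Hyls1 and had 1052 together, 564 in replicate 1 and 484 in replicate 2. Adf1, a regulator of the alcohol dehydrogenase gene, had 999.6 together, 574 in replicate 1 and 423 in replicate 2. NFAT, a factor of the family that calcium signals activate in vertebrates, had 901 together, 536 in replicate 1 and 371 in replicate 2. In these 4 peaks replicate 1 had the higher score, but scores of separate lists share no stated scale.

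The peak of norpA, the phospholipase C of the fly photoreceptor, had a signal of 1100 together, 641 in replicate 1 and 463 in replicate 2. The cGMP-dependent protein kinase gene for had 723 together, 409 in replicate 1 and 316 in replicate 2. SCaMC, a mitochondrial carrier gene, had 672 together, 294 in replicate 1 and 385 in replicate 2. It ranked 206 in replicate 1 and 73 in replicate 2.

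A further 5 of the 15 strongest peaks lay in genes known by number alone. CG32772, CG9663, CG3726, CG9837 and CG4496 had signals of 1242, 1214.97, 1002, 962 and 735. All 15 were in the own thresholded list of both replicates. Of the 15, 10 lay downstream of the nearest start site and 9 had a peak within 500 bp of a start site of the same gene.

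The replicates' own lists held different parts of the class. Applied to each list, the rule found 661 of 4248 peaks in replicate 1 and 512 of 3424 in replicate 2. Of the 878 peaks, 392 overlapped a peak in both own lists by at least 1 bp, 205 in that of replicate 1 alone, 100 in that of replicate 2 alone, and 181 in neither. The share in both was 44.6% for these intron peaks and 42.4% for the 4968 other peaks of the list (392 of 878 against 2108 of 4968). The two-sided Fisher exact test over peaks gave an odds ratio of 1.09 (95% interval 0.944 to 1.27), with an adjusted p of 0.296 over 4 tests. Across the 872 peaks with a ranked region in each replicate, the signals had a Spearman rho of 0.646, as a description.

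**Figure D1:**
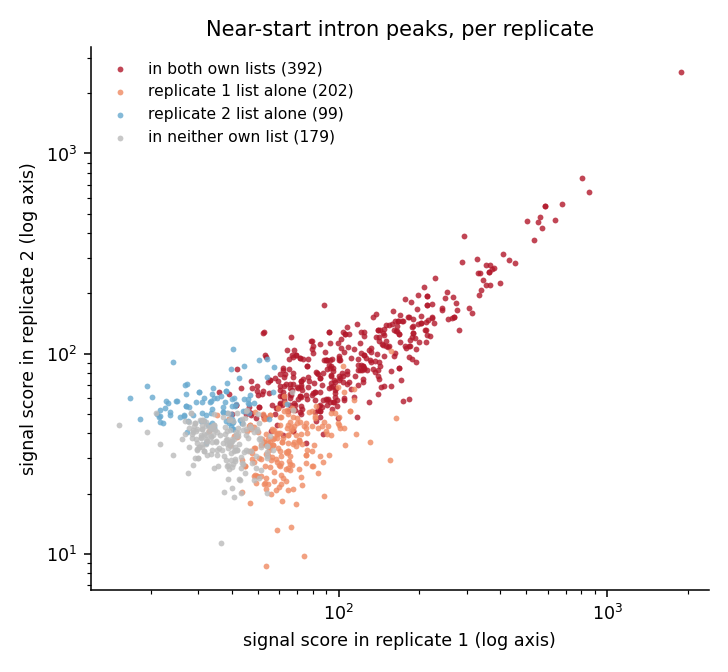
Signal score in replicate 1 (x axis, log) and replicate 2 (y axis, log) for the 872 intron peaks near a start site with a ranked region in each replicate, coloured by the own thresholded lists they are in. The CG11050 peak stands alone at the top right with 1884 and 2551, and the peaks in neither list lie at the low end of both axes.

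Presence in both own lists was nearly complete among the strongest of these peaks and rare among the weaker ones. The signal that orders them comes from the same 2 replicates, so this is a description. Among the 220 strongest of these peaks 96.8% were in both own lists, in the next 219 61.6%, in the following 219 8.22%, and in the 220 weakest 11.8%. Of the 878 peaks, 40 had a signal under 20, and 120 overlapped another peak of the class. CHES-1-like shows both: peaks of signal 350 and 5.90 overlap there, and the same replicate regions, with signals of 203 in replicate 1 and 142 in replicate 2, overlap both. Values per replicate of such neighbours are therefore shared.

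Most peaks of the class lay in the gene whose start site was nearest. This was so for 813 of 878 peaks (92.6%), against 84.3% of 9577 regions of the same class that are in the authors' longer ranked list and not in the thresholded one. These 9577 regions are the comparison throughout. Their median signal was 20.9, against 103.9 in the 878 peaks, so comparisons with them also set stronger against weaker regions. As background, 5.54% of 105559 ranked regions of every kind, and 8.4% of the 10455 of this class, were in the thresholded list. Of the 878 peaks, 581 (66.2%) lay downstream of a start site of their own gene. A further 232 (26.4%) lay upstream of an internal start site of their own gene, as in NFAT and HmgZ, against 19.9% of the ranked regions. The nearest start belonged to another gene in the rest, 51 peaks upstream of it and 14 downstream. These shares were not tested, since the rule used position.

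Peaks of the class became sparser with distance. There were 413 up to 1000 bp away, 265 from there to 1500 bp and 200 from there to 2000 bp. Over the intron sequence that the rule allows, this was 107.5, 80.8 and 71.1 peaks per Mb. Signal did not follow distance, with medians of 107, 97.7 and 102 in those 3 ranges and a Spearman rho of -0.04 over the 878 peaks. Intron peaks of the list also lay directly outside each limit of the class. Just inside the lower limit, the peaks at aru and Pcyt1, both at the first distance allowed, had signals of 338 and 97.6. Just outside it, those at CG10383 and DopEcR, at 500 and 499 bp, had 111 and 119. Just inside the upper limit, Irk1 at 1999 bp and cg at 1997 bp had 96.7 and 91.5. Just outside it, Hnf4 at 2002 bp and CG42709 at 2005 bp had 98.0 and 126.

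**Figure D2:**
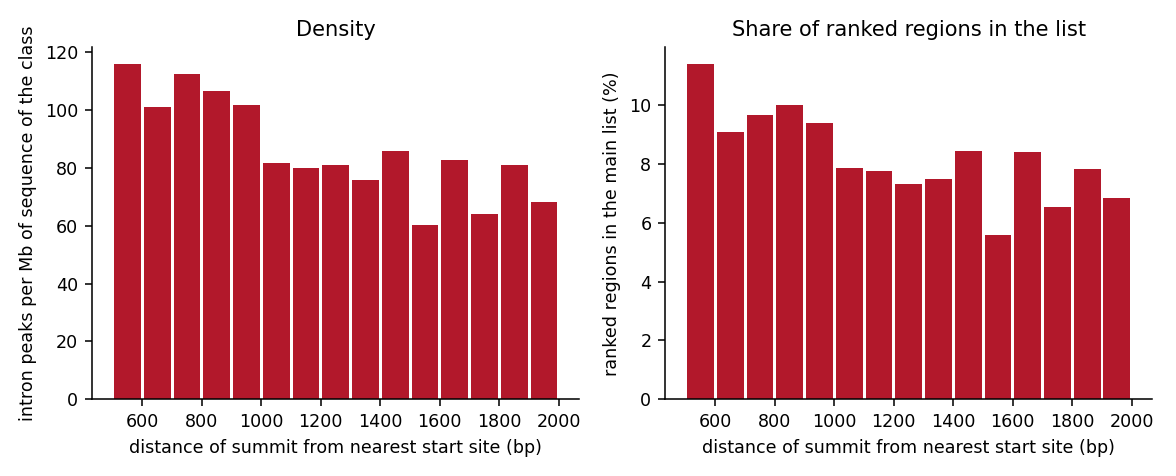
Intron peaks per Mb of intron sequence that the rule allows (left) and percentage of ranked regions of the class that are in the thresholded list (right), in 100-bp bins of distance from the nearest start site. Bars in the bins up to 1000 bp stand higher than most bars farther out, and density over bins ran between 60.1 and 116 peaks per Mb.

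First introns held most of these peaks. The summit lay in the first intron of at least 1 protein-coding transcript in 753 of 878 peaks (85.8%, 95% Wilson interval 83.3 to 87.9%), against 6677 of 9577 ranked regions of the same distance class (69.7%, 68.8 to 70.6%). The odds ratio was 2.62 (95% interval 2.15 to 3.20; two-sided Fisher exact test, adjusted p = 3.41e-26 over 4 tests). The introns of the peaks had a median length of 6865 bp, against 6003 bp for the ranked regions. Within introns longer than 2000 bp the odds ratio was 1.76 and within those longer than 5000 bp 1.69. The unadjusted p values, by the two-sided Fisher exact test, were 2.11e-07 and 2.52e-05. Both of these tests were added after the data were seen. Regions of 1 gene are not independent, and the test compares sets of regions and no conditions.

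Genes with a near-start intron peak also had promoter peaks more often. Of the 667 genes nearest to such a peak, 336 (50.4%, 95% Wilson interval 46.6 to 54.2%) had a summit of the list within 500 bp of one of their start sites. Of the 3501 genes nearest only to other ranked regions of the class, 968 did (27.6%, 26.2 to 29.2%). The odds ratio was 2.66 (95% interval 2.23 to 3.16; two-sided Fisher exact test over genes, adjusted p = 1.16e-28 over 4 tests). In the 336 genes with both kinds, the intron peak was the stronger in 157 (46.7%).

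Genes with several start sites have more places where a promoter peak can lie. Annotated starts of a gene that lay close together were counted here as 1 start site. Among genes with 1 start site, 33.6% of 226 genes with an intron peak had a promoter peak, against 20.2% of 2137 genes without one (two-sided Fisher exact test, adjusted p = 1.59e-05 over 4 strata). With 2 start sites the shares were 52.04% of 196 and 33.1% of 855, with an adjusted p of 4.35e-06. With 3 they were 54.5% of 110 and 44.2% of 317, and the adjusted p of 0.0758 did not pass 0.05. With 4 or more they were 72.6% of 135 and 59.4% of 192, with an adjusted p of 0.0186. A Mantel-Haenszel test over these strata, added after the data were seen, gave an odds ratio of 1.94. Its unadjusted p was 2.68e-13.

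**Figure D3:**
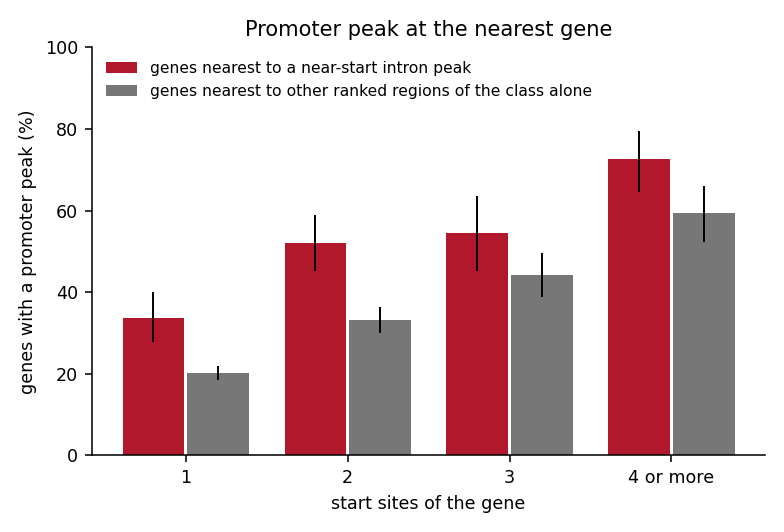
Percentage of genes with a list summit within 500 bp of a start site (y axis), by number of start sites (x axis), for genes nearest to an intron peak near a start site (red) and for genes nearest to other ranked regions of the class alone (grey). Starts of a gene that lie close together count as 1. Bars are shares and lines 95% Wilson intervals. The red bar is the higher in each pair, with 33.6% against 20.2% at 1 start site.

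A noncoding start site was seldom close. Of the 878 peaks, 15 (1.71%) lay within 500 bp of the start of a gene that does not encode a protein, against 144 of 9577 ranked regions (1.504%). The odds ratio was 1.14 (95% interval 0.618 to 1.95; two-sided Fisher exact test, adjusted p = 0.567 over 4 tests).

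Base composition dipped at the summit. The mean G+C content of the 101 bases around the summit was 35.9% in the 878 peaks, against 40.6% and 41.5% in windows 500 bp to the left and right of them. In the ranked regions it was 42.1% at the summit. It was 35.8% in the intron peaks farther away and 38.3% in the peaks within 500 bp of a start site. The stronger the peak, the lower was the G+C content: its median was 29.7% in the 220 strongest peaks, 32.7% and 36.6% in the next 2 groups, and 40.6% in the 220 weakest. Across the 878 peaks the Spearman rho of signal and G+C content was -0.401, as a description. The part of base composition in the signal was not tested.

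**Figure D4:**
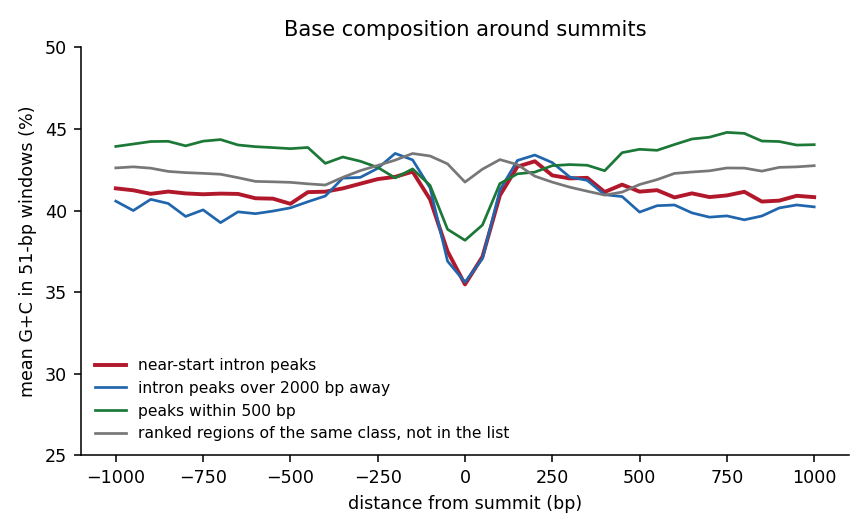
Mean G+C content in 51-bp windows (y axis) by distance from the summit (x axis) for the intron peaks near a start site, the intron peaks farther away, the peaks within 500 bp and the ranked regions of the class. In the first the curve falls to 35.5% at the summit, against 40.4% at 500 bp to the left, while that of the ranked regions is at 41.7% at the summit.

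No word known for Atf6 or ER stress passed the test at these summits. The ATF6 core TGACGTGG occurred within 50 bp of 0 of 878 summits, so that a share of up to 0.342% is allowed, against 6 of 9577 ranked regions (0.0627%). The full ER stress element, CCAAT and CCACG with 9 bases between, also occurred at 0 of 878, against 1 of 9577. Both are so rare in the ranked regions that a count of 0 in 878 shows no difference. The word CCACG alone occurred at 6.49% of the peaks and 8.93% of the ranked regions, with an adjusted p of 0.137. The ACGT core of leucine zipper sites occurred at 16.3% of the peaks and 17.9% of the ranked regions, with an adjusted p of 0.539. The GAGA factor site GAGAG occurred at 12.4% and 13.2%, with an adjusted p of 0.827. A missing word says only that these letters are not in the window. All words were sought on both strands and compared by two-sided Fisher exact tests, adjusted over the 28 words.

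Among the 28 words, 2 (7.14%) passed the test, and both were more frequent at the intron peaks. TATAAAA, the letters of a TATA box, occurred at 75 of 878 summits (8.54%), against 373 of 9577 ranked regions (3.89%). The odds ratio was 2.30 and the adjusted p 1.33e-07. In the windows 500 bp to each side of the same summits its share was 4.56%. TAATTA, the letters of many homeodomain sites, occurred at 10.02% of the peaks and 7.06% of the ranked regions, with an odds ratio of 1.47 and an adjusted p of 0.0252. With 5 strata of G+C content, neither passed: the odds ratios were 1.35 and 1.05, with adjusted p values of 0.272 and 0.887. By the two-sided Fisher exact test TAATTA also missed the threshold without replicate 2 (adjusted p = 0.0966) and in windows of 25 bp to each side (adjusted p = 1.0).

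Against the other peaks of the list, a comparison added after the data were seen, the class differed from promoter peaks and not detectably from the intron peaks farther away. The Dref site TATCGATA, bound by a promoter factor of housekeeping genes, occurred at 0 of 878 intron peaks and 62 of 2699 peaks within 500 bp (2.30%), with an adjusted p of 1.01e-06. The M1BP site GGTCACAC, found at promoters of ribosomal protein and other housekeeping genes, occurred at 0.228% and 1.41%, with an adjusted p of 0.0343. These were the 2 of 28 words (7.14%) past the threshold. Of all 6-letter words, 37 (1.78%) differed from the peaks within 500 bp, 11 more and 26 less frequent at the intron peaks near a start site. TATCGA, part of the Dref site, occurred at 3.19% and 8.78%. Against the intron peaks farther away, 0 of 28 words (0.0%) passed Fisher's exact test, and 0 had an unadjusted p under 0.05. Of all 6-letter words 0 (0.0%) passed there by the same test, while 91 had an unadjusted p under 0.05.

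Over all 6-letter words, each taken with its reverse complement, 360 (17.3%) differed between the intron peaks and the ranked regions. Of these, 176 were more and 184 less frequent at the peaks. The split followed base composition. All 36 words of A and T alone were more frequent, and none of the 36 words of G and C alone was, of which 8 were less frequent. Among the words past the threshold, the highest odds ratios were those of ATATTA (2.51), AATATT (2.45), ATTTTA (2.32), TTATAA (2.29), TTAAAA (2.24) and ACAGTG (2.21). The lowest among those past it were CGAGGA (0.151), GGACGA (0.166), GCGCGC (0.181), CGGGAG (0.189), CCGGGC (0.192) and CCTGAG (0.211), each present at no more than 4 of the 878 summits. With 5 strata of G+C content none of these last 6 passed the Mantel-Haenszel test, with adjusted p values of 0.0714 to 0.515. Their odds ratios there were 0.213, 0.244, 0.290, 0.294, 0.307 and 0.258 in the same order, so the direction was kept while the calls were lost. Nor did TTATAA and TTAAAA pass, with odds ratios of 1.35 in each and adjusted p values of 0.333 and 0.0766. The word ATATTA still passed this test, with a lower odds ratio of 1.51 and an adjusted p of 0.0103. The word AATATT also passed, with an odds ratio of 1.63 and an adjusted p of 0.000679. The word ATTTTA passed too, with an odds ratio of 1.42 and an adjusted p of 0.0213.

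Of these 12 words, ACAGTG alone had both A or T and G or C in equal number. It occurred at 93 of 878 summits (10.6%, 95% Wilson interval 8.73 to 12.8%), against 487 of 9577 ranked regions (5.09%), with an adjusted p of 8.63e-08 by the two-sided Fisher exact test over all such words. In the windows to each side of the peaks its share was 3.93%. With 5 strata of G+C content 14 of all 6-letter words passed, 12 more and 2 less frequent, and ACAGTG had an odds ratio of 2.37 with an adjusted p of 7.58e-10. The 2 less frequent ones were ACTTAC and CTTACC, with odds ratios of 0.449 and 0.291, whose reverse complements GTAAGT and GGTAAG are the letters of many splice donor sites; both were named after their values were seen. Within 25 bp of the summit ACAGTG did not pass, with an odds ratio of 1.53 and an adjusted p of 0.205. When the ranked regions were also limited to the 25% of highest signal, a setting added after the data were seen, 0 passed the Mantel-Haenszel test, while 143 had an unadjusted p under 0.05, and ACAGTG had an odds ratio of 1.81 with an adjusted p of 0.058. Its share was 6.29% in the intron peaks farther away (adjusted p 0.457) and 7.26% in the peaks within 500 bp (adjusted p 0.0756).

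Peaks with ACAGTG were about as strong as the others. The 93 had a median signal of 105, against 104 in the 785 without the word. Both replicates' own lists held 51 of the 93 (54.8%) and 341 of the 785 (43.4%), which was not tested. Among the strongest with the word were the peaks of CG32767, with a signal of 466, of schlank, a ceramide synthase gene, with 418, and of Tab2, an adaptor of immune signalling, with 395. Marf, the mitofusin gene of outer mitochondrial membrane fusion, had 358. The word was spread across the peak and had no single position: it occurred 4.78 to 7.63 times per 100 peaks in each 50-bp bin within 100 bp of the summit, against 2.44 to 2.81 in the ranked regions.

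**Figure D5:**
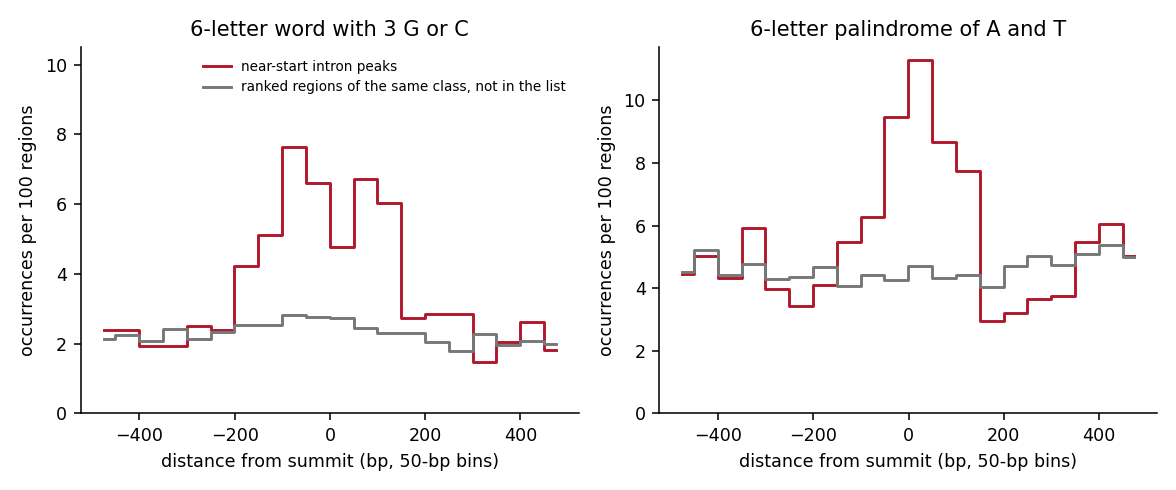
Occurrences per 100 regions (y axis) in 50-bp bins of distance from the summit (x axis) for ACAGTG, the word with 3 G or C (left), and AATATT, the palindrome of A and T (right), at the intron peaks near a start site (red) and in ranked regions of the class (grey). On the right the red line peaks at 11.3 in the bin from the summit on, against 4.70 in grey, and on the left it has a high bin on each side of the summit, 7.63 and 6.72.

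Some genes held several of these peaks. Of the 667 genes, 523 had 1, 100 had 2 and 44 had 3 or more. NFAT, CHES-1-like, which encodes a forkhead factor, and Tlk, which encodes the Tousled-like kinase of chromatin assembly, had 6 each, and IP3K2, an inositol trisphosphate 3-kinase gene, had 5. In NFAT the signals were 901, 399, 249, 146, 135 and 113. In CHES-1-like they were 605, 350, 158, 85.4, 17.3 and 5.90, and in Tlk 466, 257, 210, 178, 122 and 73.1. All 3 genes lie on the X chromosome, and in each more than 1 peak was above the class median of 103.9.

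Of the genes with 4 each, those with the strongest peaks were CG42258, brat, Kank, Diap1, egh and CG10365. In brat, which encodes a translational repressor, the strongest peak had a signal of 582, with 346 in replicate 1 and 233 in replicate 2, and the other 3 had 105, 65.7 and 4.04. In Diap1, which encodes the main inhibitor of apoptosis, the signals were 461, 140, 119 and 68.4. In egh, which encodes an enzyme of glycosphingolipid synthesis, they were 429, 148, 58.6 and 6.86. In Kank they were 468, 199, 141 and 104. In CG42258 they were 586, 180, 166 and 150, and in CG10365 298, 145, 81.8 and 12.8.

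Across 17 chosen gene lists the share of genes with such a peak ranged widely, beside 6.61% of all 10089 protein-coding genes with sequence of the class. The counts are descriptions without a test, and long genes offer more sequence. Of 15 genes of BTB-domain and GAGA-type factors, 8 had a peak. Trl led, followed by fru, the sex determination factor, whose strongest peak had a signal of 246. Of 16 bZIP factor genes, the family of Atf6, 6 had a peak. CrebB, a cyclic AMP response factor gene, had a signal of 226, and cnc, the Nrf2 counterpart of flies, had 183. Per Mb of allowed sequence these lists held 258 and 244 peaks, against 88.4 over all genes.

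Of 27 genes of ER stress and the secretory pathway with sequence of the class, 5 had a near-start intron peak. ERp60, a protein disulfide isomerase gene, had a signal of 177 together, 72.0 in replicate 1 and 95.3 in replicate 2. Cnx99A, the calnexin gene, had 112 together, 67.8 in replicate 1 and 42.3 in replicate 2, and only replicate 1 had it in its own list. The list held 6 peaks in 16.0 kb, so its density of 375 per Mb rests on few peaks.

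Of 19 muscle genes, 7 had one, led by Msp300, which encodes a nesprin, with a signal of 417, and Zasp66, a Z-disc gene, with 90.1. Of these muscle genes, only Msp300 had its peak in both own lists. The peaks of Zasp66 and wupA were in that of replicate 1 alone, and those of Prm, up, Act57B and Tm1 in neither. Of 20 actin and adhesion genes, 5 had one, led by Moe, the moesin gene, with 469, and rhea, the talin gene, with 289. Of 19 neuron genes only elav had any, with 220. Of 16 germline genes 3 had one, led by Sxl with 113 and ovo with 92.2, both in the own list of replicate 1 alone. The densities were 160 peaks per Mb for muscle, 142 for actin and adhesion, 49.5 for neuron and 360 for germline genes, the last from 4 peaks.

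Of 18 insulin and TOR genes, 5 had a peak, led by InR, the insulin receptor gene, with a signal of 336, and sgg, the GSK3 kinase gene, with 148. Of 25 Wnt, Hedgehog and BMP genes, 6 had one, led by shn, a zinc finger factor of BMP signalling, with 296, and Wnt5 with 263. Of 14 Notch and EGF receptor genes 2 had one, neur, a ubiquitin ligase gene, with 282, and sty, the inhibitor sprouty, with 190. Of 24 genes of RNA-binding proteins and splicing regulators 5 had one, led by ps with 303 and elav. Per Mb of allowed sequence the densities were 242 peaks for insulin and TOR, 143 for Wnt, Hedgehog and BMP, 48.9 for Notch and EGF receptor and 60.3 for RNA-binding genes. For the last 2 lists the share of genes, 14.3% and 20.8%, lay above that of all genes while the density lay below.

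Of 8 Hox genes, Abd-B had a peak, with a signal of 161. Of 17 segmentation genes, ptc, the Hedgehog receptor gene, had one of 89.1. Of 17 ecdysone response genes, Eip75B with 85.7 and crol with 64.8 had one, both in neither own list. Of 20 Polycomb and trithorax genes, ph-p with 316 and kis with 137 had one. None of 18 translation factor genes and none of 16 secretory tissue and cuticle genes had one, in 9.95 kb and 18.2 kb of allowed sequence. With so little sequence, a count of 0 shows no difference from all genes. In the first 4 of these lists the densities were 41.5 peaks per Mb for Hox, 65.1 for segmentation, 33.9 for ecdysone response and 131 for Polycomb and trithorax genes. Each rests on 1 or 2 peaks. For Hox and ecdysone response genes the share of genes, 12.5% and 11.8%, lay above that of all genes while the density lay below.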

How the data were processed

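Peaks were mapped in 2 biological replicates, per the labels. The deposited peak lists, thresholded and ranked by the irreproducible discovery rate, are on dm6, per the labels; the peak caller and the aligner are not given by the labels or file headers. The signal score of each region was set by the authors, and its scale is not stated. Scores were used to describe and rank regions within 1 list. The 4 columns of unclear replicate in the ranked lists were not used; values per replicate came from each replicate's own ranked list, from the strongest region overlapping by 1 bp.

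Summits were annotated with Ensembl release 115 (BDGP6 version 54), and sequences came from the RefSeq copy of the same assembly (Release 6). Every region used ended within its arm. Shares were compared by two-sided Fisher exact tests with Benjamini-Hochberg adjustment over 4 yes or no tests, 28 words or all 6-letter words, and a threshold of 0.05. Mantel-Haenszel tests gave strata. The tests within long introns and the Mantel-Haenszel test over numbers of start sites were not adjusted. The word test was also tried on simulated data, but the result is not reported here and nothing is concluded from that trial. Among the word tests, only those in strata of G+C content took account of base composition, which differed between the peaks and the ranked regions. Peaks are not replicates of a condition, and intervals cover counting error only.

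Named are the 15 strongest peaks, up to 10 genes with 3 or more, the top 2 genes of each list, the strongest peak for each word past the threshold, the 2 peaks on each side of each limit, and the 6 words of highest and lowest odds ratio; the peaks with ACAGTG were named after its values were seen. Of these, 2 peaks are not reported here. Members, lists and words were chosen with earlier results of these data known. Calculations used Python 3.11.15, numpy 2.4.6, SciPy 1.17.1, pandas 2.3.3, statsmodels 0.14.6 and matplotlib 3.10.9.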

Additional observations from a re-analysis of the deposited data

How the results depend on the processing

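The odds ratios for first introns and for promoter peaks kept their direction and stayed past the threshold in every alternative run, between 1.69 and 3.48 and between 1.93 and 3.19. The odds ratio for noncoding start sites turned to 0.861 with 1 region per gene and to 0.888 against the 25% of ranked regions with the highest signal; neither passed. The share of the list was 7.94% at distances over 750 and up to 1500 bp. The count of differing 6-letter words was 119 at those distances, 89 and 656 in windows of 25 and 100 bp, 14 in strata of G+C content, and 0 when those strata were combined with the same 25%. It was 238 without replicate 1 and 525 without replicate 2. Of the 28 words, 5 differed in the stronger 50% of the list, 1 and 4 in windows of 25 and 100 bp, 0 in G+C strata and 0 in the combined setting by the Mantel-Haenszel test, where 3 and 0 had an unadjusted p under 0.05. The number was 4 without replicate 1 and 3 without replicate 2. ACAGTG did not pass within 25 bp, with an odds ratio of 1.53. It passed within 100 bp, with an odds ratio of 2.41 (two-sided Fisher exact test, adjusted p = 1.77e-17). Of 154 values for single words under alternatives, 104 kept their side of the threshold and 50 no longer passed. Why they moved was not tested. No paired analysis was possible because there was 1 group. Read depth, which limits every weak peak, is unknown.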

Other observations

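Some ranked regions of the same class met the list's score and were left out of it. There were 28 with the list's minimum score of 830 or more. The strongest lay near cbt, a zinc finger factor gene, with a signal of 2612, and near Lk6, a protein kinase gene, with 1518. Of the 878 peaks in the list, only that of CG11050 was stronger than the first, and only those of CG11050 and Trl were stronger than the second. The reason is not given in the sources used here.

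The X chromosome gave the class its largest share of a large arm's peaks. On X, 190 of 1029 peaks of the list (18.5%) were near-start intron peaks, against 11.9% on 2L, 13.8% on 3L, 15.2% on 2R and 16.1% on 3R. Of the ranked regions of the class, 8.94% were in the list on X, and 7.54 to 8.82% on the other 4 large arms. These shares were not tested.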
